A study of Homo sapiens with 34 samples.

Results

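ZNF503, its antisense transcripts ZNF503-AS1 and ZNF503-AS2, its paralog ZNF703 and the corepressor genes TLE1, TLE2, TLE3 and TLE4 were followed through the differentiation of human embryonic stem cells (ESCs) along the cardiac lineage. These 8 genes, of 23189 gene symbols in the table of read counts, were found by symbol, and each was represented by its RefSeq transcript row with the largest total count. Cells of the established ESC line H1 were infected with lentiviral shRNA vectors against NKX2-5, ZEB2 or ZNF503, and the control cells, called WT, received either the empty vector or a hairpin against GFP. RNA was sequenced at days 0, 2, 6 and 10 of differentiation, in which WNT signalling was first activated and then inhibited. The 30 libraries used here formed 15 groups of 2: WT, NKX2-5 shRNA and ZEB2 shRNA at all 4 times and ZNF503 shRNA at days 0, 2 and 6. For each target the vector with the strongest knockdown was chosen, so each line stands for 1 shRNA and holds no check with a second hairpin. Day 10 WT and ZEB2 shRNA are replicates 3 and 4, because the rows of their replicates 1 and 2 did not follow the accessions of the table. The study describes its RNA-seq libraries as biological replicates, and the labels do not say how the 2 libraries of a group were grown, so the p-values measure the spread between those libraries.

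ZNF503 and ZNF703 belong to the NET family of zinc finger proteins, nuclear repressors that bind Groucho/TLE corepressors and are related to the Drosophila genes elbow and no ocelli. TLE1 to TLE4 are the full-length human Groucho proteins. They do not bind DNA themselves but are brought to target genes by factors such as TCF/LEF, HES and RUNX proteins, and at WNT targets β-catenin replaces them on TCF/LEF. ZNF503-AS1 and ZNF503-AS2 are long noncoding RNAs transcribed from the opposite strand at the ZNF503 locus.

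ZNF503 lies on the minus strand at chr10:77157588-77161522 in GRCh37, with GENCODE annotation. ZNF503-AS2, at chr10:77161277-77168740 on the plus strand, begins inside the first exon of ZNF503 and runs away from it, so that the exons of the genes share 246 bases, of which 0 are coding. ZNF503-AS1, at chr10:77003326-77133258, ends 24329 bases from the 3′ end of ZNF503 and shares no exon with it. ZNF703 lies at chr8:37553300-37557537 on the plus strand. The libraries were strand specific, but the sources do not say whether strand was used in counting, so reads in the shared bases of ZNF503 and ZNF503-AS2 cannot be told apart. TLE1 (chr9:84198598-84304462, minus strand) and TLE4 (chr9:82186688-82341797, plus strand) lie 1856800 bases apart. TLE2 (chr19:2997637-3047633, minus strand) sits between the family members TLE6 and TLE5, 2459 and 5274 bases away, with no other protein-coding gene among them. TLE3 is at chr15:70340129-70390515 on the minus strand.

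**Figure D1:**
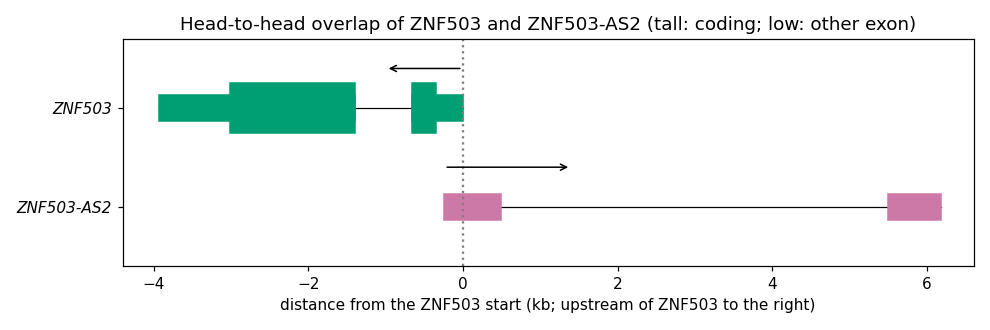
Map of the start of ZNF503 and ZNF503-AS2. The x axis is the distance from the ZNF503 start in kilobases, tall boxes are coding sequence, low boxes are other exon, lines are introns and arrows give the direction of transcription. The first exon of ZNF503-AS2 crosses the ZNF503 start and covers 246 bases of the first ZNF503 exon.

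The 250 bases upstream of the annotated start of ZNF503, TLE1 and TLE2, on which the results turn, are shown 5′ to 3′ on the strand of each gene. The windows are chr10:77161523-77161772, chr9:84304463-84304712 and chr19:3029279-3029528 in GRCh37, all on the minus strand, and the TLE2 window belongs to the canonical transcript, which starts inside the annotated span of the gene. Capitals mark matches, on either strand, to the GC box GGGCGG, to CCAAT and to TNAAGTG, a motif bound by NKX2-5. No match overlapped another.
ZNF503: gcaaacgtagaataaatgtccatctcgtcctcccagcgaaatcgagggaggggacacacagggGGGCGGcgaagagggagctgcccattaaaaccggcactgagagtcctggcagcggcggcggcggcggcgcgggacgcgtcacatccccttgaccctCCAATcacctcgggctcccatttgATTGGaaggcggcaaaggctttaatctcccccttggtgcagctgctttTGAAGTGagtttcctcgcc
TLE1: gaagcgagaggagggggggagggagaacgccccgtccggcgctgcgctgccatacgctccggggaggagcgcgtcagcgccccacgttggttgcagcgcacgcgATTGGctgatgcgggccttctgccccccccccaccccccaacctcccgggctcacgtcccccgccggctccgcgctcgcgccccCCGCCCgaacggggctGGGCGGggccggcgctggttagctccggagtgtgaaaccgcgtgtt
TLE2: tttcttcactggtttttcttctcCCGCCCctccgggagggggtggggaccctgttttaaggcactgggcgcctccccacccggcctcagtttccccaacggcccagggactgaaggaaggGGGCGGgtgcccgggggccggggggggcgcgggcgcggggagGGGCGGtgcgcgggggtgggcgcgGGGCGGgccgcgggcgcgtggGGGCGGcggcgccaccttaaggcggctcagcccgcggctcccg
The GC box occurred 1 time in the ZNF503 window, 2 times in that of TLE1 and 5 times in that of TLE2, and 59.1% of the windows of 19866 protein-coding genes hold it. CCAAT occurred 2 times at ZNF503, 1 time at TLE1 and 0 times at TLE2, against 34.3% of all windows. TNAAGTG occurred 19 bases before the ZNF503 start and is found in 6.94% of all windows. TATAAA, the TCF/LEF motif CTTTGAT and the GATA motif AGATAA, present in 9.26%, 1.72% and 6.56% of windows, were absent from these 3. The G and C content was 60.4% at ZNF503, 75.2% at TLE1 and 77.2% at TLE2, and the median window had 63.2%. The ZNF503 window lies within an exon of ZNF503-AS2.

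Libraries held 9189943 to 90814577 counts, fewest at day 10. Levels are given as CPM, counts scaled to 1000000 per library with TMM factors, and 3 counts, the floor used for a count of 0, correspond to 0.0333 to 0.327 CPM, for counting error alone. At day 0 the summed CPM of 5 pluripotency genes was 2300 to 2618 over all lines, and later the lines carried markers of different cells. At day 6 the summed CPM of 7 cardiac genes was 9412 to 11951 in WT, 5256 to 5607 in ZEB2 shRNA, 54.1 to 69.8 in NKX2-5 shRNA and 218 to 289 in ZNF503 shRNA, and that of 7 endoderm and liver genes was 335 to 675, 317 to 450, 3169 to 3259 and 2422 to 2552 in the same order. No cardiac gene of the list was at 3 counts or fewer in any line at that day. The summed CPM of 5 mesendoderm genes at day 6 was 13.8 to 14.6, 188 to 198, 8.03 to 9.21 and 15.7 to 20.3 in that order of lines. NKX2-5 was 0.878 CPM in NKX2-5 shRNA and 67.3 in WT at day 6 (log2 fold change -6.30, SE 0.30, adjusted p = 9.6e-09). On that day NKX2-5 was also below WT in ZNF503 shRNA, at 2.49 CPM (-4.78, SE 0.28, adjusted p = 7.07e-08). In ZEB2 shRNA it was 36.0 CPM (-0.89, SE 0.22, adjusted p = 0.0198). ZEB2 was 55.9 CPM in ZEB2 shRNA and 95.4 in WT at day 6 (-0.77, SE 0.12, adjusted p = 0.00136). ZEB2 in its own line did not pass at day 2 (-0.63, SE 0.17, adjusted p = 0.185) or day 10 (-1.02, SE 0.34, adjusted p = 0.0793), and at day 6 it was lower still in NKX2-5 shRNA and ZNF503 shRNA, at 20.5 and 11.9 CPM. These are bulk samples, in which fewer cells of a type and less RNA per cell cannot be told apart.

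ZNF503, the repressor targeted in the ZNF503 shRNA line, was close to the limit of detection in ESCs and rose during WT differentiation. Its level in the WT libraries was 0.106 and 0.104 CPM at day 0, 1.10 and 1.98 at day 2, 8.73 and 9.31 at day 6 and 5.45 and 10.2 at day 10. The libraries of days 0, 2 and 6 did not overlap, whereas those of days 6 and 10 did. The rise from day 0 to day 2 was 3.78 on the log2 scale (SE 0.56, adjusted p = 0.000472) and that from day 2 to day 6 was 2.60 (SE 0.37, adjusted p = 0.000247). Adjusted p-values throughout come from edgeR's quasi-likelihood test, adjusted by Benjamini-Hochberg across every gene in the fit, and a gene passed at 5% false discovery rate (FDR). Of the 7 genes tested, which left out ZNF503-AS1 for its low counts, 5 passed between days 0 and 2, 5 between days 2 and 6 and 5 between days 6 and 10, while 44.1%, 49.8% and 57.5% of all genes passed in those comparisons. Between days 0 and 10 all 7 passed, against 73.8% of all genes.

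The antisense transcript ZNF503-AS2 rose with ZNF503, although reads in the exon bases that they share cannot be told apart. ZNF503-AS2 had 0 counts in both WT libraries at day 0, then 0.387 and 0.247 CPM at day 2, 1.78 and 1.78 at day 6 and 2.49 and 4.58 at day 10. Against a floor of 3 counts in each day 0 library, the mean was at least 4.02-fold higher at day 2, 22.6-fold at day 6 and 44.8-fold at day 10. Its increase from day 2 to day 6 was 2.40 on the log2 scale (SE 0.52, adjusted p = 0.00439). Per 100 ZNF503 counts the WT libraries held 35.3 and 12.5 ZNF503-AS2 counts at day 2, 20.4 and 19.1 at day 6 and 45.7 and 44.7 at day 10. In ZEB2 shRNA the ratio was 27.3 and 32.5 at day 6 and 17.2 and 22.9 at day 10, and in NKX2-5 shRNA it was 37.5 and 35.6, then 33.3 and 16.5, so that the lines did not share a direction. Of the 27 ZNF503-AS2 counts above 0, 24 were even numbers, 88.9% against 60.0% for counts of 1 to 20 over all genes. The ZNF503-AS2 counts ran up to 216, so these percentages cover unlike ranges, and the reason for the even counts was not tested.

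ZNF703, the paralog, followed later than ZNF503. In WT it stood at 0.186 and 0.104 CPM at day 0, 0.516 and 0.618 at day 2, 0.651 and 1.06 at day 6 and 2.59 and 9.48 at day 10. The day 10 libraries were above those of every earlier day but differed widely from each other. The rise from day 6 to day 10 was 2.75 on the log2 scale (SE 0.60, adjusted p = 0.00308), with 1.57 when WT replicate 4 of day 10 was left out and 3.44 when replicate 3 was. ZNF503-AS1 had between 0 and 20 counts in any library and was not tested. Its highest counts were 7 and 20 in NKX2-5 shRNA at day 0 and 4 and 12 in the same line at day 6, and both libraries were at 0 in WT at day 6 and in ZNF503 shRNA at days 2 and 6. The floor of 3 counts is 0.0498 to 0.222 CPM in the day 6 libraries.

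**Figure D2:**
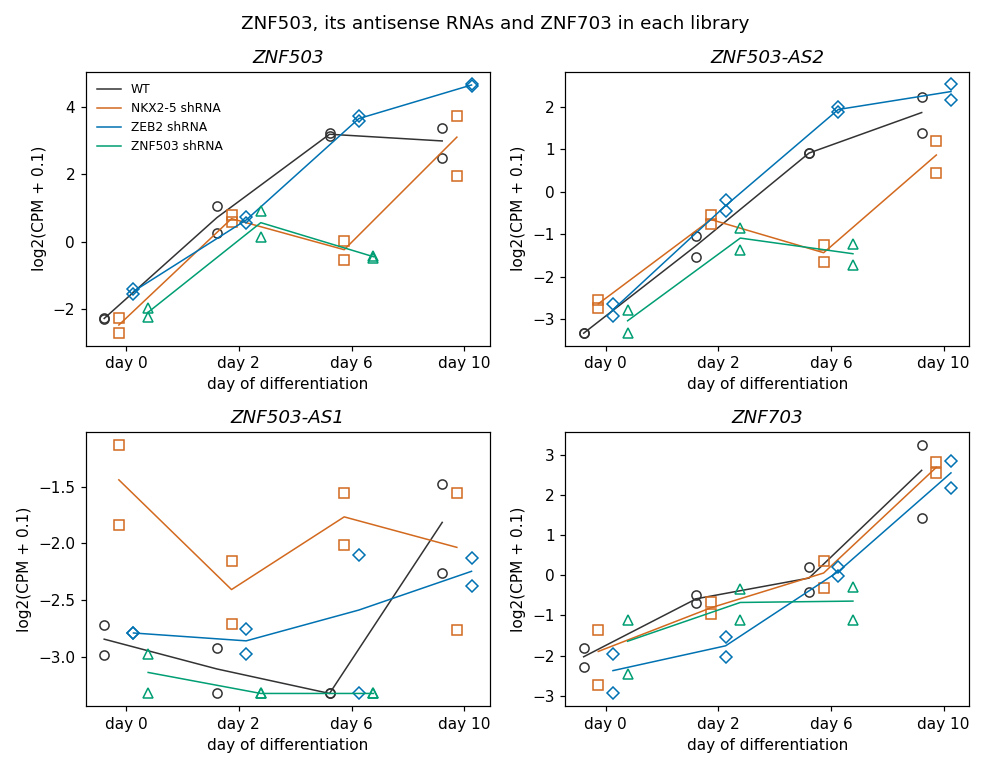
Levels of ZNF503, ZNF503-AS2, ZNF503-AS1 and ZNF703 in each library. The y axes give log2(CPM + 0.1), the x axes the day, points are single libraries and lines join the means of 2 libraries in WT, NKX2-5 shRNA, ZEB2 shRNA and ZNF503 shRNA; at day 6 the NKX2-5 shRNA and ZNF503 shRNA libraries lie below 1 CPM for ZNF503, while WT and ZEB2 shRNA lie above 8 CPM.

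The ZNF503 shRNA line did not differ detectably from WT in ZNF503 itself at days 0 and 2. Its libraries had 0.157 and 0.109 CPM at day 0, from 7 and 8 counts, and 0.991 and 1.76 at day 2. Both day 2 values lie near the 1.10 and 1.98 of WT, from 34 and 32 counts, and the groups overlap. At day 0 WT held 4 counts in each library, so a decrease there could hardly have been detected. By real-time PCR the study reports a large reduction of ZNF503 mRNA in this line, without naming the day in its text. Of 6 genes tested at day 0, 0 passed in this line by edgeR's quasi-likelihood test, with 1 at an unadjusted p under 0.05, 0 by DESeq2 and 1 by edgeR's exact test, and of 7 tested at day 2, 4 passed, all of them TLE genes. Over all genes, 7.53% passed at day 0 and 26.9% at day 2.

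At day 6 ZNF503 was low in the ZNF503 shRNA and NKX2-5 shRNA lines and not in ZEB2 shRNA. It stood at 0.613 and 0.650 CPM in ZNF503 shRNA, 0.590 and 0.901 in NKX2-5 shRNA, 13.1 and 11.9 in ZEB2 shRNA and 8.73 and 9.31 in WT. The former pair of lines overlapped each other and lay far below WT, and ZEB2 shRNA lay above WT. Against WT this was a log2 fold change of -3.84 (SE 0.29, adjusted p = 6.25e-07) in ZNF503 shRNA and -3.55 (SE 0.27, adjusted p = 4.41e-07) in NKX2-5 shRNA. Both met the stricter threshold of the study for this day, 8-fold and 1% FDR, which 3.91% and 4.71% of all genes met in these lines. In ZEB2 shRNA it was 0.48 (SE 0.22, adjusted p = 0.214). These comparisons share the WT libraries. Of the 7 genes tested at day 6, 6 passed in ZNF503 shRNA, 6 in NKX2-5 shRNA and 2 in ZEB2 shRNA, against 55.7%, 49.1% and 11% of all genes.

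The low ZNF503 level in NKX2-5 shRNA did not last. At day 10 the line had 3.75 and 13.2 CPM, which spanned the WT values of 5.45 and 10.2, and the log2 fold change was 0.14 (SE 0.57, adjusted p = 0.864). Leaving out NKX2-5 shRNA replicate 2 gave -1.01, and leaving out replicate 1 gave 0.81. Within the line, ZNF503 rose by 3.43 on the log2 scale from day 6 to day 10 (SE 0.64, adjusted p = 0.00362), with 2.26 without replicate 2 of day 10 and 4.08 without replicate 1. ZNF503-AS2 rose by 2.56 (SE 0.54, adjusted p = 0.00584) and ZNF703 by 2.67 (SE 0.58, adjusted p = 0.00675) over the same days, 5 of 7 genes passed, and so did 49.1% of all genes; neither of these 2 rises passed without replicate 1 of day 6 (adjusted p = 0.0565 and 0.0605). ZEB2 shRNA reached 25.4 and 24.7 CPM at day 10, the highest level of ZNF503 in any group, above both WT libraries. From day 6 to day 10 in that line ZNF503 rose by 0.98 (SE 0.18, adjusted p = 0.000273), and 6 of 7 genes passed against 63.3% of all genes. At day 10 the difference from WT was 1.69 (SE 0.57, adjusted p = 0.0803) and did not pass, although it passed with DESeq2 (adjusted p = 0.0229), with edgeR's exact test (adjusted p = 1.95e-06) and in 1 fit of all libraries (adjusted p = 0.00162).

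In order of mean level, ZNF503 was 25.1 CPM in ZEB2 shRNA at day 10 and 12.5 in that line at day 6, then 9.02 in WT at day 6, 8.49 in NKX2-5 shRNA at day 10 and 7.84 in WT at day 10. The last 3 of these overlapped. Next came the 4 groups of day 2, at 1.38 to 1.54 CPM, which overlapped one another, then NKX2-5 shRNA and ZNF503 shRNA at day 6, at 0.745 and 0.632, which also overlapped. The 4 groups of day 0 were lowest, at 0.258 CPM or less. Over the 15 groups the gene whose log2 level ran closest to that of ZNF503, of 17034 genes reaching 1 CPM, was ZNF503-AS2 (Pearson's r 0.979, Spearman's rho 0.943), followed by DISP1 (0.971 and 0.921) and LEF1 (0.953 and 0.918). For ZNF703 the closest were TSC22D4, KCTD16 and MUC20, with r of 0.967, 0.966 and 0.966. These are descriptions over 15 groups that share libraries and time. The counts of ZNF503 and ZNF503-AS2 may also share reads in the 246 exon bases common to both, so their correlation is not between separately measured transcripts.

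ZNF503-AS2 was low in the same pair of lines at day 6. It had 0.204 and 0.325 CPM in ZNF503 shRNA, 0.221 and 0.320 in NKX2-5 shRNA, 3.58 and 3.85 in ZEB2 shRNA and 1.78 in both WT libraries. Neither of the former lines overlapped WT, and they overlapped each other. Relative to WT the log2 fold change was -2.71 (SE 0.44, adjusted p = 0.000284) in ZNF503 shRNA, -2.66 (SE 0.40, adjusted p = 0.000156) in NKX2-5 shRNA and 1.06 (SE 0.33, adjusted p = 0.0612) in ZEB2 shRNA. The value for ZEB2 shRNA passed in 3 alternatives, of which the exact test gave the lowest adjusted p, 0.00511. At day 10 the libraries held 1.25 and 2.19 CPM in NKX2-5 shRNA, 4.37 and 5.65 in ZEB2 shRNA and 2.49 and 4.58 in WT. Neither comparison passed, with log2 fold changes of -1.01 (SE 0.49, adjusted p = 0.135) and 0.53 (adjusted p = 0.475). The ZNF503-AS2 counts of both days may include reads in the bases shared with ZNF503, which cannot be assigned.

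ZNF703 passed against WT in none of the lines at any day by edgeR's quasi-likelihood test, and its only unadjusted p under 0.05 was 0.0212, in ZEB2 shRNA at day 2. At day 6 it stood at 0.716 and 0.366 CPM in ZNF503 shRNA, 0.700 and 1.18 in NKX2-5 shRNA, 1.05 and 0.889 in ZEB2 shRNA and 0.651 and 1.06 in WT. Each line overlapped WT, and the log2 fold change in ZNF503 shRNA was -0.73 (SE 0.53, adjusted p = 0.255). At day 10 the values were 6.97 and 5.76 CPM in NKX2-5 shRNA and 7.14 and 4.41 in ZEB2 shRNA, all between the 2.59 and 9.48 of the WT libraries. The log2 fold changes there were 0.12 (adjusted p = 0.889) and -0.03 (adjusted p = 0.981), and the sign of the latter changed with the scaling. At this depth, and with WT libraries this far apart, moderate changes of ZNF703 were not detectable.

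**Figure D3:**
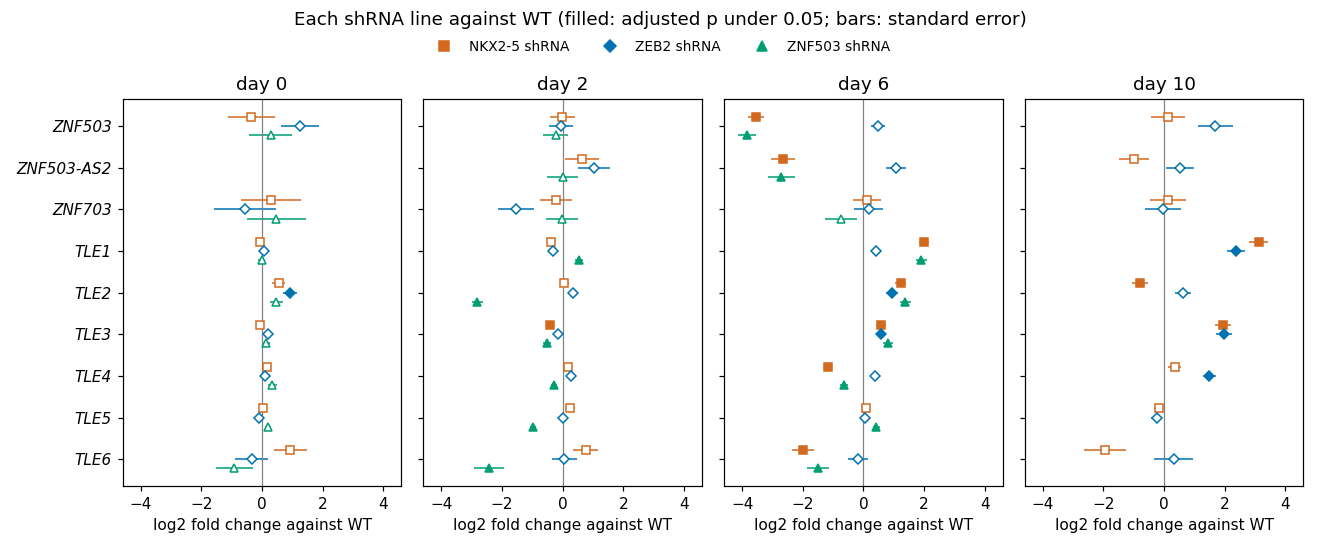
Log2 fold change against WT of 9 genes at each day. Squares are NKX2-5 shRNA, diamonds ZEB2 shRNA and triangles ZNF503 shRNA, filled symbols passed at 5% FDR, bars are standard errors and the vertical line is no change; at day 6 filled symbols for ZNF503, ZNF503-AS2 and TLE4 lie left of the line, and those for TLE1, TLE2 and TLE3 lie right of it.

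In WT cells the TLE genes exchanged places. TLE1 stood at 60.9 and 56.4 CPM at day 0, 19.2 and 21.0 at day 2, 7.95 and 10.7 at day 6 and 4.51 and 5.99 at day 10. It thus fell at every step without overlap between days, by 3.48 on the log2 scale from day 0 to day 10 (SE 0.20, adjusted p = 1.59e-07). TLE2 had 5.01 and 4.17 CPM at day 0, 15.1 and 13.3 at day 2, 14.0 and 18.7 at day 6 and 28.6 and 43.9 at day 10, a rise of 3.01 over the whole course (SE 0.25, adjusted p = 1.8e-06). TLE2 rose between days 0 and 2 and between days 6 and 10, by 1.66 (SE 0.24, adjusted p = 0.000409) and 1.15 (SE 0.23, adjusted p = 0.0018). TLE3 held 48.0 and 46.8 CPM at day 0, 62.6 and 68.1 at day 2, 31.8 and 43.1 at day 6 and 14.7 and 24.8 at day 10. TLE4 held 55.7 and 56.5 CPM at day 0, 73.2 and 75.6 at day 2, 44.6 and 42.0 at day 6 and 32.0 and 25.1 at day 10. Both were highest at day 2 and lowest at day 10, and from day 0 to day 10 TLE3 fell by 1.26 (SE 0.22, adjusted p = 0.000511) and TLE4 by 0.93 (SE 0.13, adjusted p = 8.72e-05). The rise of TLE4 from day 0 to day 2, 0.44 (SE 0.12, adjusted p = 0.0161), no longer passed when any of the 4 libraries was left out (adjusted p = 0.0758 to 0.119), and the fall of TLE3 from day 2 to day 6, 0.81 (SE 0.21, adjusted p = 0.00933), did not pass without WT replicate 2 of day 2 or replicate 1 of day 6 (adjusted p up to 0.0856).

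**Figure D4:**
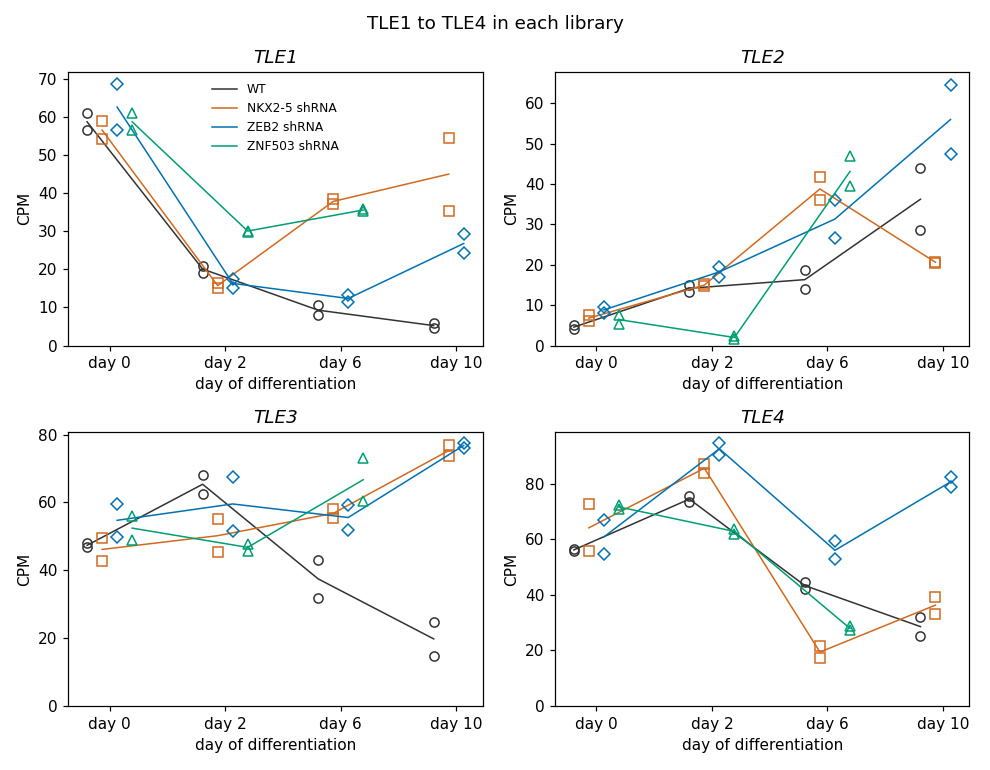
Levels of TLE1, TLE2, TLE3 and TLE4 in each library. The y axes give CPM from 0, the x axes the day, points are single libraries and lines join the means of 2 libraries; TLE2 in ZNF503 shRNA drops to 2.02 CPM at day 2, where WT has 14.2, and at day 6 TLE1 lies above 35 CPM in NKX2-5 shRNA and ZNF503 shRNA, where WT has 9.30.

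At day 0 a single test of the TLE genes passed. This was TLE2 in ZEB2 shRNA, at 9.58 and 8.10 CPM against 5.01 and 4.17 in WT, a log2 fold change of 0.92 (SE 0.22, adjusted p = 0.0371). It was lost when any of the 4 libraries was left out (adjusted p = 0.0932 to 0.316). The background at day 0 was 3.93% of all genes in ZEB2 shRNA and 15.9% in NKX2-5 shRNA, in which 0 of the 6 genes tested passed by edgeR's quasi-likelihood test, DESeq2 or the exact test and 1 had an unadjusted p under 0.05.

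At day 2 TLE2 was far below WT in the ZNF503 shRNA line. Its libraries had 2.27 and 1.76 CPM, from 204 and 39 counts, whereas WT had 15.1 and 13.3, NKX2-5 shRNA 15.3 and 14.7 and ZEB2 shRNA 17.1 and 19.4. The ZNF503 shRNA values were below those of every other day 2 library and also below the 7.64 and 5.25 CPM of the same line at day 0. This gave a log2 fold change of -2.82 (SE 0.18, adjusted p = 4.66e-08), which met the stricter threshold of the study for day 2, 4-fold and 10% FDR, which 2.8% of all genes met. Within the line TLE2 fell by 1.59 from day 0 to day 2 (SE 0.22, adjusted p = 8.32e-05), while it rose in WT over the same days, and the difference between those changes was -3.24 (SE 0.31, adjusted p = 4.91e-07). From day 0 to day 2, 4 of 7 genes passed in the line against 31.6% of all genes, and 4 of 7 changed differently from WT against 20.8% of all genes. ZNF503 itself overlapped WT in this line at day 2, at 0.991 and 1.76 CPM against 1.10 and 1.98. Whether the TLE2 result follows from a loss of ZNF503 was not tested.

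The other TLE genes moved less in ZNF503 shRNA at day 2. TLE1 stood higher, at 29.9 and 30.2 CPM against 19.2 and 21.0 in WT (log2 fold change 0.54, SE 0.13, adjusted p = 0.00771). TLE3 was lower, at 45.7 and 47.8 CPM against 62.6 and 68.1 (-0.53, SE 0.14, adjusted p = 0.00994), and so was TLE4, at 63.7 and 61.9 CPM against 73.2 and 75.6 (-0.29, SE 0.09, adjusted p = 0.0277). In each case the 2 libraries lay outside the WT range. Of these, TLE4 did not pass without any of the 4 libraries (adjusted p = 0.0859 to 0.174), TLE1 did not without ZNF503 shRNA replicate 2 or WT replicate 1 (up to 0.0792) and TLE3 did not without ZNF503 shRNA replicate 1 or WT replicate 2 (up to 0.0951). The summed CPM of 5 mesendoderm genes at day 2 was 979 to 1178 in this line and 2680 to 2758 in WT, and that of 5 pluripotency genes was 1801 to 1883 and 1242 to 1264. Their part in these results was not tested.

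In NKX2-5 shRNA at day 2, 1 of 7 genes passed against 26.7% of all genes. This was TLE3, at 45.4 and 55.0 CPM against 62.6 and 68.1 in WT (log2 fold change -0.40, SE 0.14, adjusted p = 0.0395), and it did not pass without NKX2-5 shRNA replicate 1, WT replicate 1 or WT replicate 2 (adjusted p up to 0.304). In ZEB2 shRNA 0 of 7 passed by edgeR's quasi-likelihood test, DESeq2 or the exact test, with 3 at an unadjusted p under 0.05, and 0.49% of all genes passed.

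By day 6 TLE1, which fell in WT, was far higher in NKX2-5 shRNA and ZNF503 shRNA than in WT. The libraries held 37.2 and 38.4 CPM in NKX2-5 shRNA, 35.7 and 35.4 in ZNF503 shRNA, 13.4 and 11.3 in ZEB2 shRNA and 7.95 and 10.7 in WT. None of the shRNA lines overlapped WT, and NKX2-5 shRNA and ZNF503 shRNA passed. In log2 terms the difference from WT was 2.00 (SE 0.17, adjusted p = 1.15e-06) in NKX2-5 shRNA, 1.91 (SE 0.17, adjusted p = 2.17e-06) in ZNF503 shRNA and 0.42 (SE 0.17, adjusted p = 0.154) in ZEB2 shRNA. The pair of lines reached this level by different courses. In NKX2-5 shRNA TLE1 rose again after day 2, by 1.25 (SE 0.22, adjusted p = 0.00234), whereas in ZNF503 shRNA it fell by 0.93 from day 0 to day 2 (SE 0.13, adjusted p = 6.86e-05) and averaged 30.0 CPM at day 2 and 35.6 at day 6. From day 2 to day 6, 3 of 7 genes passed in NKX2-5 shRNA and 3 in ZNF503 shRNA, where 47.9% and 65.9% of all genes did. The changes over these days differed from those in WT for 6 of 7 genes in NKX2-5 shRNA, 5 in ZNF503 shRNA and 1 in ZEB2 shRNA, against 45.3%, 47.9% and 6.23% of all genes.

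TLE2 and TLE3 were also higher at day 6 in all 3 shRNA lines. TLE2 had 35.9 and 41.6 CPM in NKX2-5 shRNA, 46.8 and 39.4 in ZNF503 shRNA, 36.0 and 26.7 in ZEB2 shRNA and 14.0 and 18.7 in WT. Its log2 fold changes were 1.23 (SE 0.19, adjusted p = 0.000148), 1.38 (SE 0.19, adjusted p = 6.53e-05) and 0.95 (SE 0.19, adjusted p = 0.00553). In ZNF503 shRNA, TLE2 thus rose by 4.34 on the log2 scale from its low point at day 2 (SE 0.23, adjusted p = 4.45e-10). TLE3 had 58.0 and 55.5 CPM in NKX2-5 shRNA, 73.1 and 60.3 in ZNF503 shRNA, 59.1 and 52.0 in ZEB2 shRNA and 31.8 and 43.1 in WT. No shRNA library overlapped WT for either gene. The TLE3 log2 fold changes were 0.59 (SE 0.16, adjusted p = 0.00762), 0.82 (SE 0.16, adjusted p = 0.000879) and 0.57 (SE 0.16, adjusted p = 0.0344). Without ZEB2 shRNA replicate 1 neither TLE2 nor TLE3 passed in that line (adjusted p = 0.0982 for TLE2 and up to 0.261 for TLE3), TLE3 also did not pass there without ZEB2 shRNA replicate 2 or WT replicate 1, and TLE3 in NKX2-5 shRNA did not pass without WT replicate 1 (0.0876).

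TLE4 went the other way at day 6. It stood at 17.2 and 21.5 CPM in NKX2-5 shRNA, 27.1 and 28.6 in ZNF503 shRNA, 59.2 and 52.7 in ZEB2 shRNA and 44.6 and 42.0 in WT. The order NKX2-5 shRNA, ZNF503 shRNA, WT, ZEB2 shRNA held without overlap. Against WT the log2 fold change was -1.16 (SE 0.14, adjusted p = 2.95e-05) in NKX2-5 shRNA and -0.64 (SE 0.14, adjusted p = 0.00241) in ZNF503 shRNA, while that in ZEB2 shRNA was 0.38 (SE 0.14, adjusted p = 0.117). The cardiac sum was low and the endoderm and liver sum high in the same pair of lines, as given above, and their part in the TLE results was not tested.

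At day 10 TLE1 and TLE3 were higher than in WT in both shRNA lines analysed. TLE1 had 35.4 and 54.5 CPM in NKX2-5 shRNA, 29.3 and 24.2 in ZEB2 shRNA and 4.51 and 5.99 in WT. All 4 shRNA libraries lay far above WT, and in ZEB2 shRNA, where TLE1 had not passed at day 6, it rose by 1.08 from day 6 (SE 0.16, adjusted p = 6.08e-05). The difference on the log2 scale was 3.12 (SE 0.31, adjusted p = 0.000512) in NKX2-5 shRNA, past the 8-fold, 1% FDR threshold of the study, which 7.31% of all genes met, and 2.37 (SE 0.30, adjusted p = 0.00415) in ZEB2 shRNA. That threshold was not met without NKX2-5 shRNA replicate 2 (2.80) or without WT replicate 3 (2.92, adjusted p = 0.0102). TLE3 had 73.7 and 76.9 CPM in NKX2-5 shRNA, 76.0 and 77.6 in ZEB2 shRNA and 14.7 and 24.8 in WT. Its log2 fold changes were 1.95 (SE 0.27, adjusted p = 0.00163) and 1.97 (SE 0.27, adjusted p = 0.00485). Of 7 genes tested, 3 passed in each line, against 43.9% of all genes in NKX2-5 shRNA and 18.2% in ZEB2 shRNA.

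The third gene to pass at day 10 differed between the lines. In ZEB2 shRNA it was TLE4, at 82.4 and 78.8 CPM against 32.0 and 25.1 in WT (log2 fold change 1.49, SE 0.21, adjusted p = 0.0056), lost without ZEB2 shRNA replicate 3 or 4 or WT replicate 4 (adjusted p up to 0.0607). In NKX2-5 shRNA it was TLE2, now lower than WT, at 20.5 and 20.8 CPM against 28.6 and 43.9 (-0.80, SE 0.27, adjusted p = 0.0473). That value did not pass without NKX2-5 shRNA replicate 1, replicate 2 or WT replicate 4 (up to 0.251), nor with library totals in place of normalisation factors (adjusted p = 0.0685) or by edgeR's exact test (0.0782). TLE2 in ZEB2 shRNA, at 64.6 and 47.3 CPM, did not pass (0.63, SE 0.27, adjusted p = 0.145), nor did TLE4 in NKX2-5 shRNA, at 39.3 and 33.2 CPM (0.35, SE 0.21, adjusted p = 0.212). The summed CPM of 5 blood genes at day 10 was 880 to 1015 in NKX2-5 shRNA, 10.8 to 39.8 in WT and 9.21 to 11.6 in ZEB2 shRNA, and that of the endoderm and liver genes was 27200 to 38594, 1482 to 3615 and 6462 to 7832. That of the 7 cardiac genes was 104 to 419, 14327 to 17141 and 3966 to 5692 in the same order. Their part in these differences was not tested.

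The shRNA lines were also compared with one another, so that the WT means do not enter the difference. At day 2 TLE2 was higher in NKX2-5 shRNA than in ZNF503 shRNA by 2.87 on the log2 scale (SE 0.18, adjusted p = 2.02e-08), TLE4 was higher by 0.47 (SE 0.09, adjusted p = 0.000835) and TLE1 was lower by 0.92 (log2 difference -0.92, SE 0.13, adjusted p = 8.83e-05). These 3 of 7 genes passed against 39.5% of all genes. ZEB2 shRNA differed from ZNF503 shRNA in the same directions, by 3.15 for TLE2 (SE 0.18, adjusted p = 1.28e-08), 0.57 for TLE4 (SE 0.09, adjusted p = 0.000227) and -0.87 for TLE1 (SE 0.13, adjusted p = 0.000194), with 29.3% of all genes passing. ZNF703 also passed there (-1.53, SE 0.55, adjusted p = 0.0481) but was lost without any of the 4 libraries (adjusted p = 0.0532 to 0.501). Between NKX2-5 shRNA and ZEB2 shRNA 0 of the 7 genes passed at day 2 by edgeR's quasi-likelihood test, 1 had an unadjusted p under 0.05, and 23.2% of all genes passed.

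At day 6 NKX2-5 shRNA and ZNF503 shRNA differed in 1 of the 7 genes, where 14.7% of all genes passed. This was TLE4, lower in NKX2-5 shRNA (log2 difference -0.52, SE 0.14, adjusted p = 0.0328), a call lost without any of the 4 libraries (adjusted p = 0.0551 to 0.296). ZEB2 shRNA differed from both. Against NKX2-5 shRNA, which was lower in ZNF503 by 4.03 (log2 difference -4.03, SE 0.27, adjusted p = 1.74e-07) and higher in TLE1 by 1.59 (SE 0.17, adjusted p = 8.6e-06), 4 of 7 genes passed against 44.4% of all genes. Against ZNF503 shRNA the same 4 genes, ZNF503, ZNF503-AS2, TLE1 and TLE4, passed against 49.2%, with ZNF503 higher in ZEB2 shRNA by 4.31 (SE 0.29, adjusted p = 3.12e-07) and TLE1 lower (-1.50, SE 0.17, adjusted p = 1.78e-05). At day 10 NKX2-5 shRNA was below ZEB2 shRNA in TLE2 (-1.43, SE 0.27, adjusted p = 0.0139) and TLE4 (-1.14, SE 0.21, adjusted p = 0.0126), where 21.3% of all genes passed, and neither held without ZEB2 shRNA replicate 3 or 4 (adjusted p up to 0.128 and 0.122).

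Levels of different TLE genes were compared per kilobase of exon, taken from the GENCODE canonical transcripts although the counts are per RefSeq row. As a share of the summed CPM per kilobase of TLE1 to TLE4, TLE1 made up 39.9% in WT at day 0, 13.3% at day 2, 9.54% at day 6 and 5.41% at day 10. TLE2 went from 4.58% to 13.8%, 24.7% and 54.4% at the same days. WT cells thus passed from a pool led by TLE1 to one led by TLE2, with TLE4 the largest share in between. In ZNF503 shRNA at day 2 the shares were 25.1% for TLE1 and 2.47% for TLE2. At day 6 TLE1 and TLE2 together exceeded TLE3 and TLE4 in NKX2-5 shRNA, with 24.9% and 37.4%, and in ZNF503 shRNA, with 20.9% and 37.1%. TLE4 fell to 10.7% and 13.9% there, against 38.1% in WT and 32.6% in ZEB2 shRNA. The summed level at day 6 was 35.4 to 38.2 CPM per kilobase in NKX2-5 shRNA, 38.9 to 43.6 in ZNF503 shRNA, 32.1 to 38.5 in ZEB2 shRNA and 21.6 to 25.3 in WT, and at day 10 it was 36.8 to 40.8 in NKX2-5 shRNA, 52.3 to 60.2 in ZEB2 shRNA and 20.4 to 26.5 in WT. On neither day did the summed level of any shRNA library overlap WT.

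**Figure D5:**
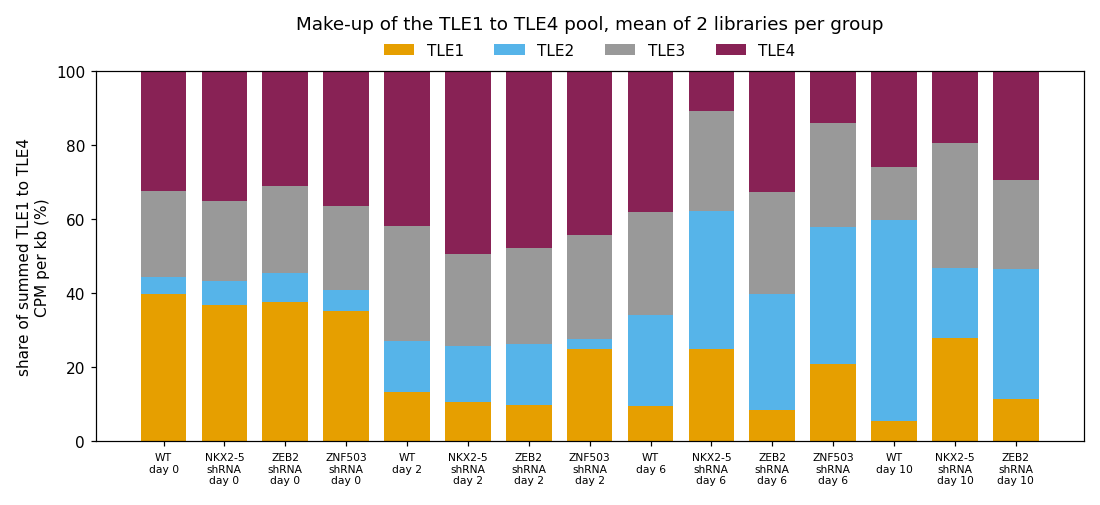
Make-up of the TLE1 to TLE4 pool in 15 groups. Each bar gives the mean share in percent, over 2 libraries, of the summed CPM per kilobase that each gene holds; the TLE2 part grows from 4.58% to 54.4% along the WT bars and shrinks to 2.47% in ZNF503 shRNA at day 2.

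TLE5 and TLE6, the family genes next to TLE2 on chromosome 19, were lower along with it at day 2 in ZNF503 shRNA. TLE5, also called AES, is a short Groucho protein without the WD40 repeats that modulates the full-length members, and TLE6 is a divergent member. In ZNF503 shRNA at day 2 TLE5 was 98.5 and 98.3 CPM against 183.6 and 193.7 in WT (log2 fold change -0.98, SE 0.10, adjusted p = 3.54e-06). TLE6 was 0.412 and 0.135 CPM, from 37 and 3 counts, against 2.45 and 0.803 in WT (-2.43, SE 0.49, adjusted p = 0.00212), with -1.32 and no call (adjusted p = 0.16) when WT replicate 1 was left out and -3.67 without ZNF503 shRNA replicate 1. The highest TLE6 library of the line was below both WT libraries. At day 6 the genes parted. TLE5 was higher in ZNF503 shRNA (0.43, SE 0.11, adjusted p = 0.00454), with 358 and 341 CPM against 246 and 269 in WT, and TLE6 was lower, with 0.920 and 1.83 CPM against 3.56 and 4.32 (-1.51, SE 0.37, adjusted p = 0.00418, and -2.12 without ZNF503 shRNA replicate 2). TLE6 was also lower in NKX2-5 shRNA, with 1.25 and 0.781 CPM (-2.01, SE 0.37, adjusted p = 0.000646). Per kilobase TLE5 was above each of TLE1 to TLE4 in every group, from 54.7 CPM per kilobase in ZNF503 shRNA at day 2 to 194 in the same line at day 6.

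Of 23 genes listed as partners of TLE proteins, 18 were tested at days 0 and 2, 16 at day 6 and 15 at day 10. In ZNF503 shRNA 2 passed at day 0, both higher, 7 at day 2, with 2 higher and 5 lower, and 9 at day 6, with 5 higher and 4 lower, where 7.53%, 26.9% and 55.7% of all genes passed. In NKX2-5 shRNA 4 passed at day 0, 4 at day 2, 7 at day 6 and 7 at day 10, where 15.9%, 26.7%, 49.1% and 43.9% of all genes did. In ZEB2 shRNA 1, 0, 2 and 5 passed in that order, against 3.93%, 0.49%, 11% and 18.2%, and at day 2 the count was 0 also at an unadjusted p under 0.05, by DESeq2 and by edgeR's exact test. The median log2 fold change of the list was 0.03 at day 2 and -0.02 at day 6 in ZNF503 shRNA, -0.08 at day 6 and 0.44 at day 10 in NKX2-5 shRNA and 0.32 at day 10 in ZEB2 shRNA, where the medians over all genes were -0.01, -0.03, 0.00, 0.03 and 0.03. The list and its genes were chosen with earlier results known and are given as a description.

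Among these partners LEF1, a DNA-binding mediator of WNT signalling, was higher than WT at day 2 and lower at day 6 in ZNF503 shRNA, and lower at both days in NKX2-5 shRNA. In ZNF503 shRNA it averaged 21.0 CPM against 9.70 in WT at day 2 (log2 fold change 1.07, SE 0.18, adjusted p = 0.000393) and 2.69 against 55.4 at day 6 (-4.35, SE 0.23, adjusted p = 3.31e-08). In NKX2-5 shRNA it averaged 4.64 CPM at day 2 (-1.10, SE 0.19, adjusted p = 0.000788), 5.68 at day 6 (-3.28, SE 0.21, adjusted p = 1.03e-07) and 22.4 against 131 in WT at day 10 (-2.54, SE 0.25, adjusted p = 0.000512). LEF1 was thus low where ZNF503 was low at day 6, but at day 10 it was low in NKX2-5 shRNA while ZNF503 was not. PRDM1, a zinc finger repressor, was lower in ZNF503 shRNA at day 2, at 2.18 against 18.3 CPM (-3.18, SE 0.18, adjusted p = 1.65e-08), and higher at day 6, at 24.0 against 9.63 (1.30, SE 0.18, adjusted p = 6.4e-05). TLE2, TLE3 and TLE5 had the same signs in that line. In NKX2-5 shRNA PRDM1 was higher at day 6 (1.46, SE 0.17, adjusted p = 2.21e-05) and at day 10, at 52.6 against 2.62 CPM (4.30, SE 0.49, adjusted p = 0.000857, and 3.45 without NKX2-5 shRNA replicate 2). TLE2 was lower there at day 10 (-0.80).

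Other partners passed too, among them GSC, which is also 1 of the 5 mesendoderm genes summed above. GSC and SIX3, homeodomain repressors, were lower in ZNF503 shRNA at day 2, with log2 fold changes of -0.91 (SE 0.11, adjusted p = 2.62e-05) and -0.70 (SE 0.15, adjusted p = 0.00278), the latter lost without ZNF503 shRNA replicate 1 (0.0643), and HES6 was higher (0.64, SE 0.20, adjusted p = 0.0242), lost without ZNF503 shRNA replicate 1, replicate 2 or WT replicate 1 (up to 0.166). At day 6 SIX3 was higher in the line, at 2.69 against 1.02 CPM (1.39, SE 0.36, adjusted p = 0.00629, lost without ZNF503 shRNA replicate 1 or WT replicate 2, up to 0.0514). HES1, a Notch target, was lower at day 6 in ZNF503 shRNA, at 17.0 against 38.4 CPM (-1.19, SE 0.15, adjusted p = 4.65e-05), and in NKX2-5 shRNA, at 8.61 (-2.16, SE 0.16, adjusted p = 3.7e-07). HDAC1, a histone deacetylase that works with TLE proteins, was lower in ZNF503 shRNA at day 6, at 76.4 against 111 CPM (-0.55, SE 0.12, adjusted p = 0.00213). It was also lower in NKX2-5 shRNA at day 6, at 73.8 CPM (-0.60), and in ZNF503 shRNA at day 2, at 103 against 148 CPM (-0.57). RUNX1, a regulator of blood formation, was higher in NKX2-5 shRNA at day 6, at 4.34 against 0.789 CPM (2.38, SE 0.34, adjusted p = 0.000107). At day 10 it stood at 20.6 against 0.892 CPM in that line (4.41, SE 0.53, adjusted p = 0.000988). RUNX2 was higher there at day 10 as well (3.24, SE 0.55, adjusted p = 0.00368), and HDAC2 was lower, at 172 against 279 CPM (-0.69, SE 0.19, adjusted p = 0.0244), lost without WT replicate 3 (0.122) and by edgeR's exact test (0.0744). In ZNF503 shRNA at day 6 RUNX1 was higher, at 1.92 CPM (1.20, SE 0.36, adjusted p = 0.0147), lost without ZNF503 shRNA replicate 1 or WT replicate 1 (up to 0.0973) and 1.84 without WT replicate 2. HES6 was lower in NKX2-5 shRNA at day 6, at 1.08 against 3.25 CPM (-1.54, SE 0.34, adjusted p = 0.00269). The RUNX1 values in NKX2-5 shRNA were 3.03 without WT replicate 2 of day 6 and 5.57 without WT replicate 3 of day 10, and that of RUNX2 was 4.58 without the latter. Both genes were also higher in ZEB2 shRNA at day 10, RUNX1 at 12.4 CPM (3.67) and RUNX2 at 5.81 CPM (2.80). With 1 library left out these log2 fold changes ran from 3.21 to 4.82 and from 2.28 to 4.13, highest without WT replicate 3. The RUNX2 call was lost without ZEB2 shRNA replicate 3 or 4 or WT replicate 4. The summed CPM of 5 blood genes in ZEB2 shRNA at day 10 was 9.21 to 11.6, against 10.8 to 39.8 in WT.

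The genes with counts that lie next to the ZNF503 locus are COMTD1, 7537 bases below ZNF503-AS1, and LRMDA, which begins 22641 bases above the end of ZNF503-AS2. At day 6 LRMDA held 0 and 4 counts in ZNF503 shRNA, 12 and 19 in NKX2-5 shRNA, 68 and 15 in ZEB2 shRNA and 33 and 61 in WT, or 0.0812, 0.411, 1.12 and 1.45 CPM on average. At day 6 it was thus low in the lines in which ZNF503 and ZNF503-AS2 were low. In ZEB2 shRNA, where both stood above WT, the LRMDA libraries lay below WT (-0.37, SE 0.47, adjusted p = 0.697). At day 10 LRMDA was 1.35 and 3.00 CPM in NKX2-5 shRNA against 4.62 and 5.01 in WT (-1.14, SE 0.48, adjusted p = 0.0901), while ZNF503 overlapped WT. The log2 fold change of LRMDA at day 6 was -3.97 (SE 0.70, adjusted p = 0.000502) in ZNF503 shRNA, with -8.61 without replicate 2 of that line, which leaves a library at 0, and -3.14 without replicate 1. In NKX2-5 shRNA it was -1.83 (SE 0.51, adjusted p = 0.00982), which did not pass without NKX2-5 shRNA replicate 2 (adjusted p = 0.0826). COMTD1, on the other side, was higher in ZNF503 shRNA at day 2, at 6.36 and 5.87 CPM against 3.26 and 3.52 in WT (0.82, SE 0.23, adjusted p = 0.0164), a call lost without ZNF503 shRNA replicate 1, WT replicate 1 or WT replicate 2 (up to 0.112), and at day 6 it did not pass in any line. At day 10 it was higher in NKX2-5 shRNA (1.37, SE 0.37, adjusted p = 0.0219), lost without WT replicate 4 (0.0979).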

How the data were processed

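Total RNA of the H1 libraries was sequenced as strand-specific paired ends. According to the study's methods and the submitters' processing notes, the authors aligned reads to hg19 with TopHat2 2.0.14, Bowtie2 2.2.1.0 and SAMtools 0.1.19.0, and deposited raw read counts per RefSeq gene region, with no normalisation. Whether strand was used in counting is not given in the sources used here. The table held 34 libraries and 41627 accessions, of which 40285 (96.8%, with 97.1% of counts) matched a symbol through RefSeq, and every column belonged to a sample of the series (0 did not). Rows with no accession numbered 1077 and carried values only in the WT and ZEB2 shRNA libraries of day 10, replicates 1 and 2. In those 4 libraries the median Spearman correlation with replicate 3, over blocks of rows, was 0.00792 to 0.0131, against 0.984 and 0.993 for replicate 4, so they were left out. Day 10 ZNF503 shRNA was not analysed here.

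For each symbol the row with the largest total was kept. Counts were fitted with edgeR 4.0.16 in R 4.3.3 (TMM, filterByExpr, glmQLFit and glmQLFTest) for each day, each line or, for differences of changes, the 24 libraries of days 0, 2 and 6, making 45 comparisons. P-values were adjusted by the Benjamini-Hochberg method across all genes in a fit, and a standard error is the log2 fold change divided by the root of F. Genes passed at 5% FDR, and the study's thresholds (2-fold and 10% FDR at day 0, 4-fold and 10% at day 2, 8-fold and 1% later) were counted as well. The fit was tested on simulated data. For ZNF503 shRNA against WT at day 6 over 16170 genes it recovered 80.9% of genes changed 2-fold and 100% of those changed 4-fold or 8-fold. For WT at day 6 against day 2 it recovered 76.6% at 2-fold and 93.8% at 4-fold. For the difference of ZNF503 shRNA from WT between days 2 and 6 these were 25.7% and 95.4%. Every simulated gene had the same spread, set in advance and not estimated from these libraries, and genes with few counts were not changed. All genes not chosen for a change had equal mean shares in every group, unlike the real comparisons. The recovered percentages therefore hold for that setting only. Recovery for genes with few counts, or for libraries far apart, is therefore not known. CPM used TMM factors over all 30 libraries.

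Alternatives were DESeq2 1.42.0, edgeR's exact test, other scalings, no filter, summed rows, a fit of all libraries, a replicate block and leaving out each library. All 8 genes, TLE5 and TLE6 are named. Of the TLE partners, up to 3 with the largest rise and 3 with the largest fall were named among those passing and reaching 1 CPM, in ZNF503 shRNA at days 2 and 6 and NKX2-5 shRNA at days 6 and 10. The genes next to the locus and the 3 closest in pattern complete the rule. COMTD1 and LRMDA at day 10, RUNX1 and RUNX2 in ZEB2 shRNA and the marker sums are given beside them. So is HDAC1 in NKX2-5 shRNA at day 6 and in ZNF503 shRNA at day 2. Genes and lists were chosen with earlier results of these data known. Where a library is left out, the lone library of its group is assumed to vary like the others.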

Additional observations from a re-analysis of the deposited data

Results flagged for a closer look

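For 16 results the change between days differed from that in WT by a test of the difference itself, edgeR's interaction term over the libraries of days 0, 2 and 6. All values are log2 differences, shRNA change minus WT change.

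From day 0 to day 2, 4 genes changed differently in ZNF503 shRNA, a line in which ZNF503 itself did not differ detectably from WT at either day. TLE2 fell where it rose in WT (-3.24, SE 0.31, adjusted p = 4.91e-07). TLE1 fell less than in WT (0.59, SE 0.19, adjusted p = 0.0275), and TLE3 (-0.62, SE 0.21, adjusted p = 0.0445) and TLE4 (-0.59, SE 0.18, adjusted p = 0.0215) moved lower relative to WT. The TLE1 value was lost without any of the 8 libraries (adjusted p = 0.0594 to 0.131), the TLE3 value without 7 of 8 (up to 0.137) and the TLE4 value without 4 of 8 (up to 0.0586).

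From day 2 to day 6, 5 genes changed differently in ZNF503 shRNA. ZNF503 (-3.62, SE 0.47, adjusted p = 2.48e-06) and ZNF503-AS2 (-2.74, SE 0.75, adjusted p = 0.00503) were lower relative to WT, where both rose. TLE2 rose more (4.17, SE 0.30, adjusted p = 6.93e-10), from the low level of day 2, and TLE3 rose where it fell in WT (1.32, SE 0.22, adjusted p = 3.9e-05). TLE1 fell in WT and averaged 30.0 and 35.6 CPM in the line, a change that did not pass by itself (difference 1.35, SE 0.19, adjusted p = 7.95e-06).

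In NKX2-5 shRNA 6 genes changed differently from day 2 to day 6. ZNF503 (-3.54, SE 0.45, adjusted p = 1.6e-06), ZNF503-AS2 (-3.30, SE 0.70, adjusted p = 0.000674) and TLE4 (-1.33, SE 0.18, adjusted p = 3.82e-06) were lower relative to WT. TLE1 (2.38, SE 0.20, adjusted p = 3.99e-09), TLE2 (1.19, SE 0.28, adjusted p = 0.0016) and TLE3 (1.00, SE 0.22, adjusted p = 0.000729) were higher. In ZEB2 shRNA TLE1 averaged 16.3 CPM at day 2 and 12.4 at day 6, a change that did not pass by itself, and differed from the fall in WT by 0.72 (SE 0.20, adjusted p = 0.0308), a call lost without 5 of the 8 libraries (up to 0.18). These differences share the WT libraries with each other and with the comparisons on single days.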

How the results depend on the processing

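Over the 8 genes, 26 tests against WT passed at 5% FDR, with 25 to 30 under the alternatives and 23 to 26 when 1 library was left out. The 92 passing tests between days became 92 to 100 and 88 to 94, the 18 between shRNA lines 17 at the lowest and 16 to 20, and the 16 differences of changes 15 at the lowest and 12 to 17. Of the single results reported, 166 of 176 kept direction and call in 1 fit of all libraries, 177 of 178 with DESeq2, 170 of 173 with edgeR's exact test, 209 of 213 without normalisation factors, 177 of 178 without a filter, 174 of 178 with rows summed, 178 of 179 with upper-quartile factors, 165 of 171 with a replicate block and 757 of 915 with a library left out, where 150 lost the call. The sign of ZNF703 in ZEB2 shRNA at day 10 turned to 0.12 without normalisation factors, 0.0013 without a filter and 0.18 with a replicate block, and the cause was not tested. Leaving out libraries also turned signs. ZNF703 against WT then ranged from -0.33 to 0.54 in NKX2-5 shRNA and from -0.087 to 0.60 in ZEB2 shRNA at day 6, and from -0.56 to 1.31 and -0.70 to 1.16 at day 10, and ZNF503 in NKX2-5 shRNA at day 10 ranged from -1.01 to 0.81. In 1 fit of all libraries TLE3 (adjusted p = 0.0901) and TLE4 (0.283) in ZNF503 shRNA and TLE3 in NKX2-5 shRNA (0.198) no longer passed at day 2, nor did HES6 (0.146), SIX3 (0.113) and COMTD1 (0.0886) in ZNF503 shRNA at day 2, LRMDA in NKX2-5 shRNA at day 6 (0.0709) and TLE3 in ZEB2 shRNA at day 6 (0.0623). With rows summed, TLE3 did not pass in NKX2-5 shRNA at day 2 (0.0538) or ZEB2 shRNA at day 6 (0.0518), and without normalisation factors the TLE1 difference from WT between days 0 and 2 in ZNF503 shRNA did not (0.102), nor did ZNF703 between ZEB2 shRNA and ZNF503 shRNA at day 2 (0.0509).

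The replicate numbers mark no shared batch in the labels, and correlations of same-numbered deviations ran from -0.284 to 0.323, so the numbers were not taken to pair the samples. With the replicate number as a block, 23 of the tests against WT that share numbers passed, as did 23 without it, and 71 against 67 between days, 16 against 16 between lines and 15 against 16 for differences of changes. The calls were not the same throughout. Under the block TLE2 in ZEB2 shRNA at day 0 (0.0594), TLE3 in ZEB2 shRNA at day 6 (0.0539), ZNF703 between ZEB2 shRNA and ZNF503 shRNA at day 2 (0.0599) and the TLE3 difference of ZNF503 shRNA between days 0 and 2 (0.0516) no longer passed, and ZNF503 in ZEB2 shRNA at day 10 passed (0.00148). Low depth at day 10, and the low counts of ZNF503-AS1, ZNF503-AS2 and ZNF703, limit what could be detected there.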
